A study of Mus musculus with 42 samples.

Results

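Translational efficiency, the amount of ribosome-protected RNA of a gene relative to its input RNA, was compared between the brains of Pcif1 knockout (KO) and wild-type (WT) mice. The 12 libraries of this experiment, out of 42 samples in the series, were 3 input RNA and 3 ribosome footprint libraries from each genotype. Of 50765 rows in the deposited brain table, 22008 were protein-coding, and the 13825 of these with a value of at least 10 in at least 3 of the 12 libraries were tested. All mice were adult. The KO mice came from a single line in which Cas9 and a pair of guide RNAs had removed 89 bp spanning exon 15 and intron 16 of Pcif1, with loss of the catalytic NPPF residues and a premature stop codon. Founder embryos were of the B6D2F1/J hybrid between C57BL/6J and DBA/2J, and the founders were crossed to C57BL/6J, while the labels give the WT controls by genotype alone. Frozen brains of 3 mice per genotype were lysed with cycloheximide, which holds ribosomes on the mRNA. One portion of each lysate was digested with RNase I to leave footprints, and another went directly to input RNA.

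PCIF1 is the methyltransferase that places a methyl group on the N6 position of an adenosine when that adenosine is the first transcribed nucleotide of a capped mRNA. The product, m6Am, sits beside the cap, where initiation factors of the eIF4F complex recruit the ribosome, so its effect on translation has been a standing question. A footprint difference that matches the input difference reflects mRNA amount, and a footprint difference beyond the input difference is a difference in translational efficiency. In brain, mRNAs of synaptic proteins, plasticity genes and myelin proteins are well-known cases of control at the ribosome.

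Values are the authors' scaled reads, called signal here. Each fit used log2(signal + 1), which understates the change of low genes, and each difference is KO minus WT on that log2 scale. A gene was called when limma's adjusted p (Benjamini-Hochberg over the 13825 genes) was below 0.05. Replicate numbers only name libraries, in accession order. Input and footprints came from shared lysates, but the labels do not tie a footprint library to its input, so the fit treated the 12 libraries as independent. Summed signal of 9 blood cell markers in replicates 1, 2 and 3 was 4106, 7014 and 2923 in WT inputs and 6811, 13162 and 3952 in WT footprints, and 4100.5, 6124.5 and 5331 in KO inputs and 6494, 10888 and 8582 in KO footprints. The libraries thus ranked alike in both readouts for these markers, and the effect of shared animals on the efficiency tests was not tested. The 3 mice per genotype are biological replicates.

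Estimated gene reads ran from 13613503 to 17443754 in 11 libraries and were 5528739 in KO input replicate 2. Ribosomal RNA together with AY036118, a lincRNA row, took 66.6 to 74.4% of the footprint signal. Markers of neurons, oligodendrocytes, astrocytes and microglia were present in every group, with 0 of 11, 0 of 11, 0 of 10 and 0 of 11 markers listed at 0. Summed signal of 10 markers of other organs was 9.33 to 61.96 in the input libraries. Pcif1 itself had input signals of 252.6, 318.3 and 387.7 in WT against 254.5, 200.7 and 259.4 in KO, and footprint signals of 241.6, 229.2 and 233.5 in WT against 354.3, 301.7 and 182.2 in KO. The deleted stretch is small and these totals check no label. The efficiency difference of Pcif1 was 0.61 ± 0.334 (SE), with limma adjusted p = 0.579.

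WT footprint replicate 2 stood apart from the other WT footprint libraries. Over the tested genes, its Pearson correlation was 0.909 with WT footprint replicate 1 and 0.914 with replicate 3, against 0.929 with each of the 3 KO footprint libraries. WT replicates 1 and 3 correlated at 0.937 with each other. These are descriptions across 13825 genes, which share length and base composition between libraries. AY036118 had a signal of 6042890 and 2813990 in WT footprint replicates 1 and 3 and was listed at 0 in replicate 2 and in the 3 KO footprint libraries. Together with ribosomal RNA it took 74.4, 73.8 and 71.3% in WT footprint replicates 1, 2 and 3, so replicate 2 did not stand apart in that total. In inputs AY036118 was 12.2, 62.4 and 19.2 in WT against 2420, 1720 and 1598 in KO. The ribosomal RNA row CT010467.1 was 75.3, 134.6 and 102.5 in WT inputs against 1095, 3420 and 1290 in KO inputs. The cause of these differences was not tested. When WT footprint replicate 2 was left out, limma called 2118 of 13774 genes (15.4%) for footprints, and in 1753 of them (82.8%) the library that had been left out lay nearer the KO mean than the mean of the other WT libraries. The corresponding share was 27.8 to 38.9% for each of the other 5 footprint libraries, on 18 to 54 genes. Which of the WT footprint libraries are typical of WT brain cannot be told apart with 3 of them, so results below are given with all 12 libraries and also without WT footprint replicate 2. Both fits share the remaining libraries. For a gene picked by its p in the first fit, a call in the second is no independent support.

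With all 12 libraries, translational efficiency was called in 4 of 13825 genes (0.0289%), 3 higher (0.0217%) and 1 lower (0.00723%) in KO. At an unadjusted p below 0.05 the count was 1330 genes (9.62%), 594 higher (4.3%) and 736 lower (5.32%). The called genes were Gm10260, Gm21985 and Abcb1a, higher in KO, and Gm4737, lower in KO. Of these genes, 3 are predicted genes with 1 group listed at 0 in all its libraries, and Abcb1a is the only one with signal in all 12. Without WT footprint replicate 2 the count was 781 of 13774 genes (5.67%), 378 higher (2.74%) and 403 lower (2.93%). Of those 781 genes, 421 had an unadjusted p below 0.05 with all 12 libraries.

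**Figure D1:**
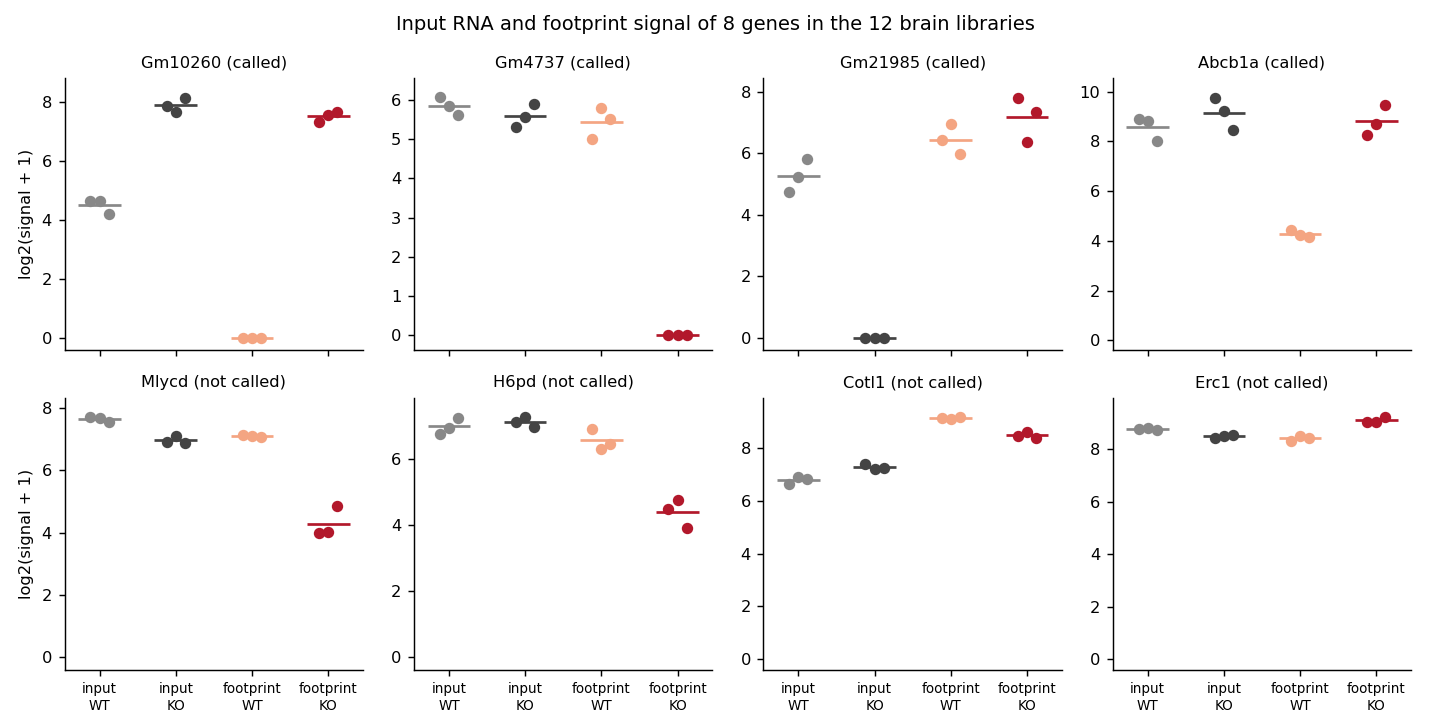
Signal of 8 genes in each of the 12 brain libraries, as log2(signal + 1) on the vertical axis, with points for libraries and lines for group means. The upper row holds the 4 called genes, of which Gm10260, Gm4737 and Gm21985 each have 1 group at 0, and the lower row holds 4 genes that did not pass, in which the KO footprints of Mlycd and H6pd lie far below the WT footprints.

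Abcb1a on chromosome 5 encodes P-glycoprotein, the efflux pump of brain endothelial cells. Its input signal was 481.0, 446.9 and 255.2 in WT against 864.1, 598.0 and 356.6 in KO, and these ranges overlap. Its footprint signal was 20.5, 18.1 and 16.9 in WT against 308.6, 415.6 and 716.7 in KO, so the lowest KO library lay far above the highest WT library, WT replicate 2 included. The efficiency difference was 3.96 ± 0.516 (SE), 95% interval 2.83 to 5.08, with limma adjusted p = 0.0226. The call was lost in 9 of 27 alternatives, with adjusted p from 0.00834 to 0.115. Abcb1b is a close paralog, and with the reads of both summed the difference was 3.74 ± 0.551 and no longer passed (limma adjusted p = 0.0683). Summed signal of 10 endothelial markers, Abcb1a among them, was 1233 to 1674 in WT and 1580.4 to 2031 in KO inputs, and 1386 to 1753 in WT and 2104 to 2660.1 in KO footprints. The sum includes the Abcb1a signal itself, with footprints of 16.9 to 20.5 in WT and 308.6 to 716.7 in KO. It is therefore no separate measure of endothelial cells, and no sum without Abcb1a was taken. The part of endothelial cell amount in the Abcb1a result was not tested.

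Gm10260 on chromosome 13 is listed by RefSeq as Rps18-ps6, a pseudogene of Rps18, which encodes a protein of the small ribosomal subunit. Input signal of Gm10260 was 23.96, 23.96 and 17.6 in WT against 231.1, 202.0 and 279.6 in KO. Footprints of Gm10260 were listed at 0 in all 3 WT libraries and had signals of 159.1, 185.0 and 201.4 in KO. The fitted efficiency difference, 4.12 ± 0.351 (SE) with limma adjusted p = 0.000597, therefore depends on the pseudocount and is no bound. Rps18 had the opposite pattern, with input signals of 445.6, 435.4 and 421.2 in WT against 170.3, 162.5 and 160.1 in KO and footprint signals of 328.6, 301.7 and 348.3 in WT against 163.3, 223.3 and 143.2 in KO. Neither input nor footprint ranges of Rps18 overlapped between genotypes. With Rps18 and Gm10260 summed, the efficiency difference was 0.32 ± 0.185 and did not pass (limma adjusted p = 0.598), and the input difference was -0.19 ± 0.131. How reads were divided between the gene and its near copy is not given in the sources used here, so both values are uncertain taken singly.

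Gm4737 on chromosome 16, a predicted protein-coding gene, had input signals of 66.5, 57.4 and 48.5 in WT against 39.2, 46.9 and 59.6 in KO, which overlap. Its footprints were 31.02, 55.3 and 44.6 in WT and were listed at 0 in all 3 KO libraries, and the fitted efficiency difference was -5.19 ± 0.448 (SE) (limma adjusted p = 0.000597). Gm21985 on chromosome 2 had input signals of 26.03, 36.8 and 55.8 in WT and was listed at 0 in all 3 KO inputs. Footprints of Gm21985 were present in both genotypes, at 84.3, 121.3 and 61.4 in WT against 222.8, 81.9 and 160.1 in KO, with overlapping ranges, and the fitted difference was 6.01 ± 0.585 (SE) (limma adjusted p = 0.00148). Its KO input was thus listed at 0 although KO footprints were present, and a 0 in this table may be a failed estimate. In all, 185 tested genes had at least 1 group listed at 0 in all its libraries. Leaving these out left 0 genes called by limma, with 1299 at an unadjusted p below 0.05, and a pseudocount of 10 also left 0, with 1328.

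Further genes of small p did not pass with 12 libraries. Mlycd, which encodes malonyl-CoA decarboxylase, had footprint signals of 138.4, 135.9 and 135.1 in WT against 14.8, 15.4 and 27.7 in KO. Input signals of Mlycd were 208.8, 206.3 and 186.3 in WT against 120.5, 135.9 and 118.1 in KO, and neither readout overlapped between genotypes. Its efficiency difference was -2.14 ± 0.319 (SE) with limma adjusted p = 0.0587, and -2.14 with adjusted p = 0.0112 without WT footprint replicate 2. H6pd encodes the enzyme that makes NADPH inside the endoplasmic reticulum. Its input signals were 106.3, 121.8 and 150.2 in WT against 137.1, 152.2 and 122.3 in KO, and its footprints 119.2, 77.7 and 85.9 in WT against 21.3, 25.6 and 13.95 in KO, a difference in efficiency of -2.31 ± 0.365 (SE) (limma adjusted p = 0.0736). The inputs of H6pd overlapped and the footprints did not. Kyat3, a kynurenine aminotransferase, had inputs of 20.3, 18.4 and 20.8 in WT against 39.6, 67.7 and 54.9 in KO and footprints of 41.3, 44.7 and 51.7 in WT against 30.1, 15.04 and 18.2 in KO. Input was higher and footprints were lower in every KO library, for an efficiency difference of -2.51 ± 0.43 (SE) (limma adjusted p = 0.101).

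Cotl1, Ttll3, Chpf2 and Tmem165 also had lower values that did not pass with 12 libraries. Cotl1, an actin-binding protein, had footprint signals of 561.0, 552.2 and 575.8 in WT against 354.1, 394.5 and 335.0 in KO, and input signals of 99.6, 119.7 and 112.5 in WT against 166.9, 146.0 and 152.4 in KO. WT footprints of Cotl1 agreed closely across all 3 libraries, and its efficiency difference was -1.13 ± 0.186 (SE) (limma adjusted p = 0.0833). Ttll3, a tubulin glycylase, had footprints of 30.2, 30.3 and 19.2 in WT against 4.67, 5.87 and 5.28 in KO at inputs of 29.6, 17.9 and 19.7 and 33.4, 25.5 and 27.1. For Chpf2, which acts in chondroitin sulfate synthesis, the difference was -1.47 ± 0.287 (SE) (limma adjusted p = 0.216). For Tmem165, a Golgi membrane protein needed for glycosylation, it was -1.30 ± 0.255 (SE) (limma adjusted p = 0.219). Without WT footprint replicate 2 the efficiency differences of Cotl1, Ttll3, Chpf2 and Tmem165 were -1.14, -2.37, -1.41 and -1.27, all called (limma adjusted p of 0.0113, 0.0222, 0.0262 and 0.0238). These genes were picked for small p with all 12 libraries, so calls on a part of those libraries are no independent support.

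On the higher side, Erc1, a scaffold protein of the presynaptic active zone, had inputs of 439.8, 454.5 and 420.8 in WT against 345.3, 366.8 and 370.1 in KO. Footprints of Erc1 were 315.5, 364.0 and 346.4 in WT against 525.1, 532.8 and 597.0 in KO, so its RNA was lower and its footprints higher in every KO library. The efficiency difference of Erc1 was 0.97 ± 0.159 (SE) (limma adjusted p = 0.0833). Mettl6, a tRNA methyltransferase, had footprints of 18.3, 23.5 and 22.96 in WT against 63.9, 63.6 and 103.6 in KO at overlapping inputs of 186.0, 162.8 and 138.6 and 136.6, 164.5 and 152.8. Its difference was 1.85 ± 0.326 (SE) (limma adjusted p = 0.115). Sos2, an exchange factor of Ras, had footprints of 60.1, 65.9 and 81.2 in WT against 362.6, 185.8 and 180.7 in KO, again with overlapping inputs (1.70 ± 0.353 (SE), limma adjusted p = 0.249).

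Laptm4b, a lysosomal membrane protein, had footprints of 440.8, 587.5 and 583.1 in WT against 728.6, 740.8 and 746.8 in KO, and its inputs of 413.0, 457.6 and 453.7 in WT were above the KO inputs of 311.3, 270.9 and 352.3. Ppt1, the palmitoyl-protein thioesterase lost in infantile neuronal ceroid lipofuscinosis, had footprints of 456.8, 562.6 and 494.3 in WT against 752.3, 796.1 and 881.0 in KO. Their efficiency differences were 0.98 ± 0.201 (SE) and 0.83 ± 0.178 (SE), with limma adjusted p of 0.247 and 0.28. Txnl4a, a component of the U5 spliceosomal particle, and Chst15, a chondroitin sulfotransferase, had 1.87 ± 0.386 (SE) and 2.02 ± 0.426 (SE) (limma adjusted p of 0.247 and 0.275). Without WT footprint replicate 2 the 7 genes Erc1, Mettl6, Sos2, Laptm4b, Ppt1, Txnl4a and Chst15 were each called, with differences from 0.91 for Ppt1 to 2.04 for Txnl4a and limma adjusted p from 0.00813 for Erc1 to 0.0383 for Chst15. They too were picked for small p with all 12 libraries, so these calls are no independent support.

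Where the input RNA differed, the footprints did not always follow. Input was called in 11 of 13825 genes (0.0796%), 5 higher (0.0362%) and 6 lower (0.0434%) in KO, with 772 (5.58%) at an unadjusted p below 0.05. Noct, the circadian gene Nocturnin, had inputs of 717.7, 747.7 and 612.3 in WT against 1281, 1507 and 1428 in KO (log2 difference 1.02, limma adjusted p = 0.0123). Footprints of Noct were 1586, 1139 and 1245 in WT against 1339, 1294 and 1262 in KO, so RNA was higher in every KO library while the footprint ranges overlapped. The efficiency difference of Noct was -1.04 ± 0.19 (SE) and did not pass (limma adjusted p = 0.147). Ncbp3, a nuclear cap-binding protein, had inputs of 540.2, 899.8 and 612.2 in WT against 2412, 3962 and 1951 in KO and footprints of 65.3, 114.0 and 68.8 and 76.2, 88.6 and 109.8, which overlap.

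Inputs called for low genes included Gm10282, a predicted gene given as protein-coding. Its signal was listed at 0 in all WT inputs and all footprints and at 26.2, 46.3 and 39.5 in KO inputs. Gm28778 had inputs of 7.15, 5.15 and 7.04 in WT and was listed at 0 in the KO inputs, with overlapping footprints of 28.2, 20.8 and 17.7 and 15.4, 20.1 and 34.7. Nhlrc4 had inputs of 18.02, 41.9 and 19.2 in WT against 0.83, 0 and 0.97 in KO, and its footprints did not exceed 1 in any library. Gm21969 was the reverse case, with WT footprints of 73.4, 23.9 and 90.5 and inputs of 0 to 1.94.

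Rara, the retinoic acid receptor alpha, had inputs of 105.6, 77.6 and 102.4 in WT against 12.4, 17.5 and 13.7 in KO, a log2 difference of -2.63 (limma adjusted p = 0.000765). Its footprints were 30.7, 31.04 and 29.4 in WT against 21.9, 22.4 and 18.1 in KO, a smaller difference of -0.53, and the efficiency difference of 2.10 ± 0.35 (SE) had limma adjusted p = 0.0851. In Fam234b both readouts were lower in KO, with inputs of 1049, 1053 and 1154 in WT against 587.7, 492.9 and 429.2 in KO and footprints of 1768, 1997 and 1612 in WT against 886.5, 1160.4 and 1005 in KO. The efficiency interval of Fam234b ran from -0.14 to 0.74. Eno1b, a retrotransposed copy of the glycolytic enolase gene Eno1, was listed at 0 in all 6 WT libraries and had KO inputs of 912.8, 1323 and 1585 and KO footprints of 41.9, 168.7 and 160.2. Summed with Eno1, its inputs were 4583, 4594 and 5040.1 in WT and 4838, 2818 and 3676 in KO, and its footprints 12743, 7577 and 13604 in WT and 5169.6, 2869 and 2709 in KO. For the sum, the footprint difference was -1.68 ± 0.278 and passed (limma adjusted p = 0.0258), and the efficiency difference of -1.32 ± 0.393 did not (limma adjusted p = 0.434).

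**Figure D2:**
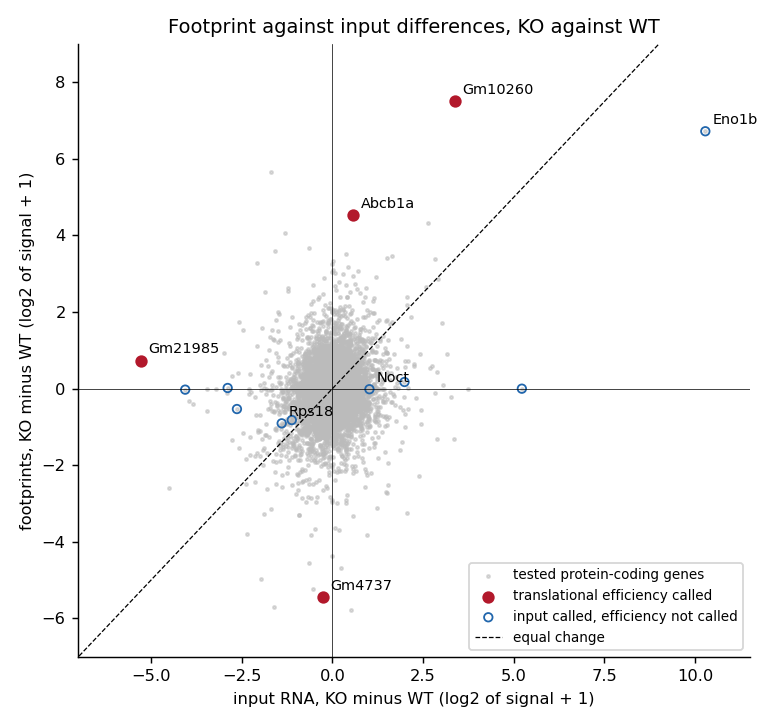
KO minus WT difference in footprints against that in input RNA for the 13825 tested genes, both in log2 of signal + 1, with the dashed line for equal change. Gm10260, Abcb1a, Gm21985 and Gm4737 lie far from the line, and Noct, whose input was called, lies near a footprint difference of 0.

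Footprints were called in 93 of 13825 genes (0.673%), 50 higher (0.362%) and 43 lower (0.311%), with 2456 (17.8%) at an unadjusted p below 0.05. The fit gave each gene a spread shared by all 12 libraries, though the groups differed. The median SD of log2(signal + 1) was 0.183 in WT and 0.241 in KO inputs, and 0.363 in WT and 0.255 in KO footprints. With the spread from footprint libraries alone 10 genes were called for footprints, and from input libraries alone 13 for input. Adjusted p for footprints therefore depends on the shared spread, also for single genes. The footprint count was 18 without WT footprint replicate 1 and 2118 without WT footprint replicate 2. Hmgcs1, the cholesterol synthesis enzyme that makes HMG-CoA, had footprints of 1692, 2052 and 1818 in WT against 3631, 3980.3 and 4284 in KO, with inputs of 1981, 2133 and 2132 in WT against 3077, 2881 and 2707 in KO. Neither readout of Hmgcs1 overlapped between genotypes, and the footprint difference of 1.10 (limma adjusted p = 0.000519) came with an efficiency difference of 0.63 ± 0.146 (SE) that did not pass (limma adjusted p = 0.325). Spaca6, a gene known for sperm-egg fusion, had footprints of 1.95, 2.46 and 1.90 in WT against 26.9, 27.05 and 21.98 in KO at overlapping inputs, and Lrrc75b had 11.9, 13.2 and 12.1 against 45.98, 59.2 and 61.5. Both were low in every WT footprint library, with efficiency differences of 2.37 ± 0.59 (SE) and 1.52 ± 0.428 (SE) that did not pass (limma adjusted p of 0.332 and 0.433). H2-D1, a class I histocompatibility gene, had footprints of 281.2, 413.9 and 264.3 in WT against 804.1, 718.4 and 708.7 in KO, and H2-Q10 had 0, 0 and 1.51 against 28.1, 25.5 and 25.002. Values of both are uncertain because class I genes are near-identical. Among lower footprints, Ky, a muscle-associated gene, had 87.03, 54.6 and 45.4 in WT against 3.74, 5.89 and 6.46 in KO, and Gm20458 had 169.1, 119.9 and 147.2 against 44.1, 49.1 and 67.997. In the same direction, Atp6v0c, the proteolipid subunit of the vacuolar proton pump, had 5816, 3639 and 6502 in WT against 1063, 1553 and 812.1 in KO, with inputs of 1613, 1701 and 1468 and 753.0, 838.9 and 818.1. Rnps1, an exon junction protein, had footprints of 837.9, 736.5 and 726.7 in WT against 373.6, 315.1 and 315.9 in KO and inputs of 300.0, 308.3 and 285.1 and 206.1, 154.0 and 193.5. Fosl2, an AP-1 transcription factor, had 442.7, 261.3 and 564.9 in WT against 99.2, 131.4 and 126.4 in KO, and its efficiency difference of -1.18 ± 0.365 (SE) did not pass (limma adjusted p = 0.463). In Atp6v0c, Rnps1 and Fosl2 the input and the footprints were both lower in every KO library.

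Across genes, the order of footprint against input was much alike in both genotypes. The Pearson correlation between the WT and the KO level of footprint minus input was 0.859 (Spearman 0.844) across 13825 genes, which share length and sequence between the genotypes. The middle 90% of genes spanned -2.27 to 1.87 in WT and -2.24 to 1.81 in KO. The efficiency difference itself had a median of -0.01, quartiles of -0.36 and 0.32 and an SD over genes of 0.698. Input and footprint differences had a Pearson correlation of 0.158 (Spearman 0.105) across the same genes. For 4959 genes (35.9%) the 95% interval of the efficiency difference lay wholly within 1 log2 unit of 0, and for 47 it lay wholly beyond 1 unit. By expression, this share went from 1.63% among the least expressed 2765 genes to 69.4% among the most expressed 2765, and the median distance from an estimate to the end of its interval shrank from 1.62 to 0.51.

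Lists of genes by function were described by counts and medians beside the background of 9.62% at an unadjusted p below 0.05 and 0.0289% called. Both background shares cover genes of all expression levels, and none matched to a list by expression was taken. Of 49 tested cap-binding and initiation factors, 0 were called and 5 higher and 2 lower were at an unadjusted p below 0.05 (14.3%), with a median difference of 0.06. Eif4g1, the scaffold of the cap-binding complex, had footprints of 1699.5, 1719 and 1459.9 in WT against 1627, 1895 and 2007 in KO and an efficiency interval of -0.30 to 0.42. The helicase gene Eif4a2 had an interval of -0.35 to 0.40. Eif3h and Eif3f, subunits of the initiation factor eIF3, had -0.63 ± 0.213 (SE) and 1.20 ± 0.472 (SE), with limma adjusted p of 0.486 and 0.502. Of 19 elongation and release factors, 0 were called and 1 higher and 3 lower were at an unadjusted p below 0.05 (21.1%), with a median of -0.24. Eef2, the translocation factor, had footprints of 8165, 5037 and 7839 in WT against 5845, 5182 and 4039.8 in KO and an interval of -1.02 to 0.16.

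Among 83 cytoplasmic ribosomal proteins, 0 were called and 10 higher and 8 lower were at an unadjusted p below 0.05 (21.7%), with a median of 0.02 and quartiles of -0.42 and 0.42. Rps13, of the small subunit, had footprints of 75.02, 117.1 and 124.1 in WT against 1.19, 21.5 and 0.38 in KO, with inputs of 346.9, 424.9 and 297.4 and 346.8, 584.2 and 347.9. Its efficiency difference was -4.90 ± 1.09 (SE) (limma adjusted p = 0.311). The processed pseudogene Rps13-ps1 went the other way, at 7.49 in the fit over all biotypes (limma adjusted p = 0.0383). Rps13 and Rps13-ps1 were not summed, so the value of Rps13 is uncertain taken singly. Rps25, also of the small subunit, lay on the other side at 0.98 ± 0.242 (SE) (limma adjusted p = 0.332), and the abundant Rpl4 and Rpl7a had intervals of -0.11 to 0.70 and -0.65 to 1.14. Many ribosomal protein genes have processed pseudogenes, so their values are uncertain.

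Genes known for control at the ribosome were also described. Of 33 genes of the integrated stress response and of upstream open reading frames, 0 were called and 0 higher and 3 lower were at an unadjusted p below 0.05, with a median of -0.17. Shmt2, a mitochondrial one-carbon enzyme, had inputs of 31.3, 33.4 and 27.1 in WT against 53.6, 84.97 and 54.8 in KO and footprints of 201.8, 135.6 and 253.7 and 154.3, 128.3 and 163.7 (-1.39 ± 0.368 (SE), limma adjusted p = 0.409). Of 25 genes of polyamine, ferritin and other textbook control, 0 were called, 1 was at an unadjusted p below 0.05 and the median was -0.02. That gene was Fth1, the ferritin heavy chain, with footprints of 367.8, 1077 and 522.5 in WT against 1331, 1061 and 818.3 in KO. Of 21 selenoproteins, 3 higher and 1 lower were at an unadjusted p below 0.05, 0 were called and the median was 0.04. Selenoi, a phospholipid-synthesis enzyme, had 0.86 ± 0.236 (SE) (limma adjusted p = 0.43), and the abundant Gpx4, a lipid peroxidase, and Selenop, the selenium carrier, had intervals of -0.40 to 0.65 and -0.42 to 0.59. Of 38 genes of the m6A, m6Am and cap machinery, 0 were called and 0 higher and 4 lower were at an unadjusted p below 0.05, with a median of -0.02. Mettl14, a subunit of the m6A writer, had footprints of 155.7, 207.9 and 200.9 in WT against 80.8, 101.5 and 62.6 in KO with overlapping inputs (-1.33 ± 0.387 (SE), limma adjusted p = 0.433). Rngtt, the capping enzyme, had -1.14 ± 0.358 (SE) (limma adjusted p = 0.466).

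Of 13 mitochondrially encoded proteins, 10 had a difference below 0, 2 at an unadjusted p below 0.05 and 0 called, with a median of -0.42. mt-Atp6 had footprints of 3466, 3428 and 4176 in WT against 2304, 2391 and 2852 in KO, and inputs of 2650.4, 2084 and 1881 in WT against 2074, 3585 and 1966 in KO. The highest of its inputs was that of the shallow KO replicate 2. Over the alternatives the median of these 13 genes ran from -0.71 to 0.03, so its sign was not kept. Their mRNAs are read by mitochondrial ribosomes and carry no cap. mt-Atp8 had footprints of 956.8, 292.0 and 700.9 in WT against 318.8, 356.8 and 285.0 in KO, with WT replicate 2 among the KO values. The abundant mt-Co1 and mt-Co3 had intervals of -0.93 to 0.32 and -1.31 to 1.74. The 75 nuclear-encoded oxidative phosphorylation genes had a median of 0.04, 0 called and 5 higher and 4 lower at an unadjusted p below 0.05. Atp5a1 and Atp5b, the alpha and beta subunits of ATP synthase, had 0.51 ± 0.174 (SE) and 0.42 ± 0.164 (SE) (limma adjusted p of 0.486 and 0.502). For 53 of these 75 the 95% interval lay within 1 log2 unit of 0.

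Among neuronal functions, 25 synaptic vesicle and active zone genes had a median of -0.12, with 0 called, 0 higher and 3 lower at an unadjusted p below 0.05 and 22 intervals within 1 log2 unit of 0. Snap25, a SNARE protein of vesicle fusion, had footprints of 15693, 19186 and 15502 in WT against 17763, 18369 and 19667 in KO and an efficiency interval of -0.10 to 0.49. The 27 postsynaptic and dendritic genes had a median of 0.01 and 0 called, with 4 higher and 3 lower at an unadjusted p below 0.05. Camk2a, the classic dendritic mRNA, had inputs of 1604, 1563 and 1697 in WT against 1496, 1465 and 1655 in KO and footprints of 16122, 14367 and 15962 and 15600.5, 16110.1 and 15342. Its interval of -0.17 to 0.36 was among the narrow ones. Gria3, an AMPA receptor subunit, had footprints of 1063, 804.1 and 1229 in WT against 1455, 1339 and 1767 in KO, with inputs that were lower in every KO library (0.90 ± 0.22 (SE), limma adjusted p = 0.332).

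The 18 immediate early genes had a median of -0.24, with 0 called, 0 higher and 1 lower at an unadjusted p below 0.05. That gene was Fosb, with footprints of 281.4, 223.7 and 404.0 in WT against 81.2, 78.7 and 124.0 in KO. Egr1 had footprints of 1862, 1332 and 2136 in WT against 1291, 1173 and 1200.2 in KO, and Arc had 1008, 628.2 and 1292 and 643.5, 751.0 and 621.2. In Fosb and Egr1 every KO footprint value lay below every WT value, whereas in Arc WT replicate 2 lay among the KO values. Of 17 circadian clock genes, 1 higher and 3 lower were at an unadjusted p below 0.05, 0 were called and the median was -0.33. Cry2, a clock repressor, had footprints of 854.3, 809.1 and 707.0 in WT against 495.1, 658.8 and 491.4 in KO (-0.77 ± 0.191 (SE), limma adjusted p = 0.332). The time of day at collection is not given in the sources used here. Neuropeptides (19 genes, median -0.06), proteasome subunits (31, -0.11), chaperones (30, 0.05), spliceosome and RNA-binding proteins (31, 0.12) and interferon-stimulated genes (14, -0.10) had 0 called, and at an unadjusted p below 0.05 they had 0 and 1, 1 and 1, 1 and 0, 2 and 1, and 0 and 0 genes higher and lower.

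Abundant members of these lists had narrow intervals. Hspa8, the constitutive HSP70 chaperone, had footprints of 16183, 17258 and 16853 in WT against 13831, 13439.5 and 13909.6 in KO and an interval of -0.40 to 0.15, and Hsp90ab1, a cytosolic HSP90, had one of -0.27 to 0.63. Penk, the enkephalin precursor, had footprints of 1873, 2146 and 1705 in WT against 1853, 1788 and 1707 in KO (-0.40 ± 0.165 (SE), limma adjusted p = 0.502). Psmd3 and Psmb1, proteasome subunits, had -0.71 ± 0.246 (SE) and 0.33 ± 0.144 (SE), on opposite sides of 0 (limma adjusted p of 0.498 and 0.51). Among interferon-stimulated genes, Eif2ak2 had a wide interval of -1.71 to 0.02.

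**Figure D3:**
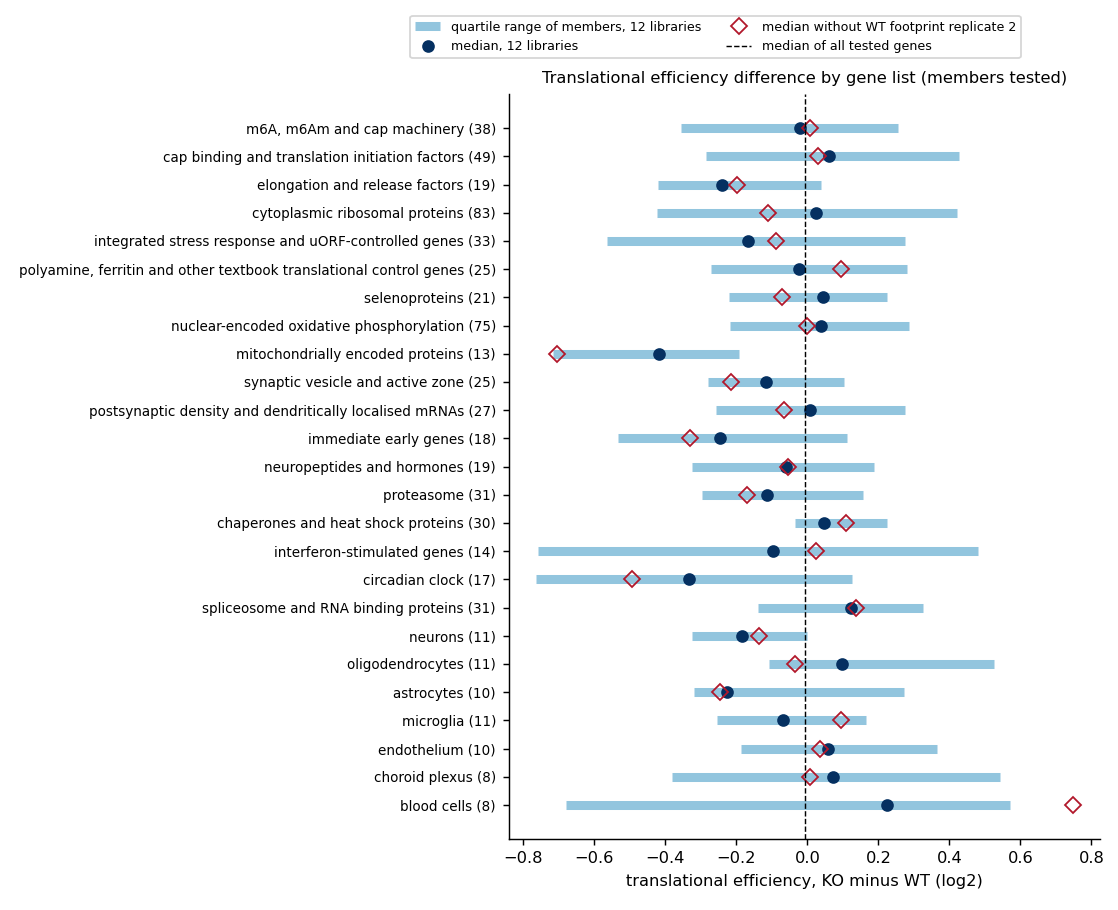
Median difference in translational efficiency (log2, KO minus WT) of each gene list, with the number of tested members in parentheses, bars from the lower to the upper quartile of members with 12 libraries and open diamonds for the median without WT footprint replicate 2. Most medians lie within 0.25 of the dashed median of all genes, and the mitochondrially encoded and circadian lists lie lowest.

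Summed signal of oligodendrocyte and microglial markers did not overlap between genotypes in either readout, and that of astrocyte markers did not overlap in input. Summed signal of 11 oligodendrocyte markers was 22745 to 23766 in WT and 32970 to 35242 in KO inputs, and 37034 to 53894 in WT and 64147 to 71906 in KO footprints. In these bulk samples, more cells of a type and more RNA per cell cannot be told apart. Mbp, myelin basic protein, had inputs of 6659.6, 5661 and 5799 in WT against 8684, 8645 and 8738 in KO and footprints of 13872, 6808 and 12044 against 10489, 11533 and 10892, whose ranges overlap. Mag and Mal, myelin membrane proteins, had footprints of 2468, 2777 and 2879 and of 736.6, 886.3 and 776.0 in WT against 3927, 4048 and 4634 and 1206, 1577 and 1479.6 in KO. Of the 11 markers, 4 were called higher for footprints, 0 for input and 0 for efficiency, and the median efficiency difference was 0.10.

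Summed signal of 11 microglial markers was 1629 to 1937 in WT and 1296 to 1412 in KO inputs, and 2819 to 3936 in WT and 2333 to 2373 in KO footprints. C1qa, a complement component made by microglia, had footprints of 566.5, 379.2 and 311.3 in WT against 179.1, 176.3 and 198.0 in KO and inputs of 109.4, 103.1 and 83.7 and 64.3, 60.9 and 62.3, without overlap in either readout. The footprint difference of C1qa was -1.14 (limma adjusted p = 0.0376), and the efficiency median of the 11 markers was -0.07 with 0 called. Neuronal markers had summed inputs of 32385 to 35011 in WT and 31825 to 37447 in KO, which overlap, and an efficiency median of -0.19 over 11 genes with 0 called. S100b, an astrocytic calcium-binding protein, had footprints of 406.9, 706.4 and 434.7 in WT against 675.2, 703.8 and 763.5 in KO, with WT replicate 2 among the KO values. Summed signal of 10 astrocyte markers was 16709 to 18120.0 in WT and 19081 to 19744 in KO inputs, and 50819 to 57784.5 in WT and 51864.5 to 56745.5 in KO footprints, and their efficiency median was -0.23 with 0 called.

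Without WT footprint replicate 2, larger numbers of list members were called, beside a background of 5.67%. This background covers genes of all expression levels, and none matched to the lists by expression was taken. Cytoplasmic ribosomal proteins had 9 higher and 13 lower of 83, oxidative phosphorylation genes 9 higher and 4 lower of 75, and initiation factors 5 higher and 3 lower of 49, while immediate early genes had 0 of 18. Txnrd1, a thioredoxin reductase, is one such case. Footprints of Txnrd1 were 157.1, 458.6 and 151.7 in WT against 465.5, 467.3 and 479.4 in KO, so WT replicate 2 lay just below the KO values and far above the other WT values, at inputs of 221.3, 218.2 and 215.9 and 226.5, 131.5 and 180.0. Its efficiency difference was 1.40 ± 0.494 (SE) with 12 libraries (limma adjusted p = 0.502) and 1.92 without that library (limma adjusted p = 0.00744). Uqcrh, a subunit of respiratory complex III, had footprints of 253.7, 888.4 and 314.9 in WT against 789.8, 771.8 and 1035 in KO. Snrpd3, a core spliceosomal protein, had 223.6, 610.6 and 275.1 in WT against 653.2, 658.0 and 988.0 in KO. In Uqcrh WT replicate 2 again lay within the KO range, and in Snrpd3 close below it.

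Eef1a2, the elongation factor of mature neurons, had footprints of 12617, 6869.7 and 10815 in WT against 7241, 7115 and 6174 in KO, and Eef1a1, the widely expressed form, had 3018, 6437 and 4192 and 6811, 6572 and 7352. WT replicate 2 lay within the KO range for Eef1a2 and just below it for Eef1a1. Without that library the differences were -0.95 and 1.09 (limma adjusted p of 0.00744 and 0.013), in opposite directions. Camk2b, a synaptic kinase subunit, had footprints of 7084, 4243 and 5523 in WT against 4542, 4221 and 3939.6 in KO. Fto, an RNA demethylase that acts on m6Am and m6A, had 2180.2, 992.6 and 1604 in WT against 1093, 1099.8 and 1101 in KO, and Tubb3, a neuronal tubulin, had 6750.1, 3184 and 5211 and 2889, 3238 and 2697. When WT footprints were taken from replicate 2 alone, limma called 7 genes, 5 higher and 2 lower, with the lone library assumed to vary like the other groups.

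**Figure D4:**
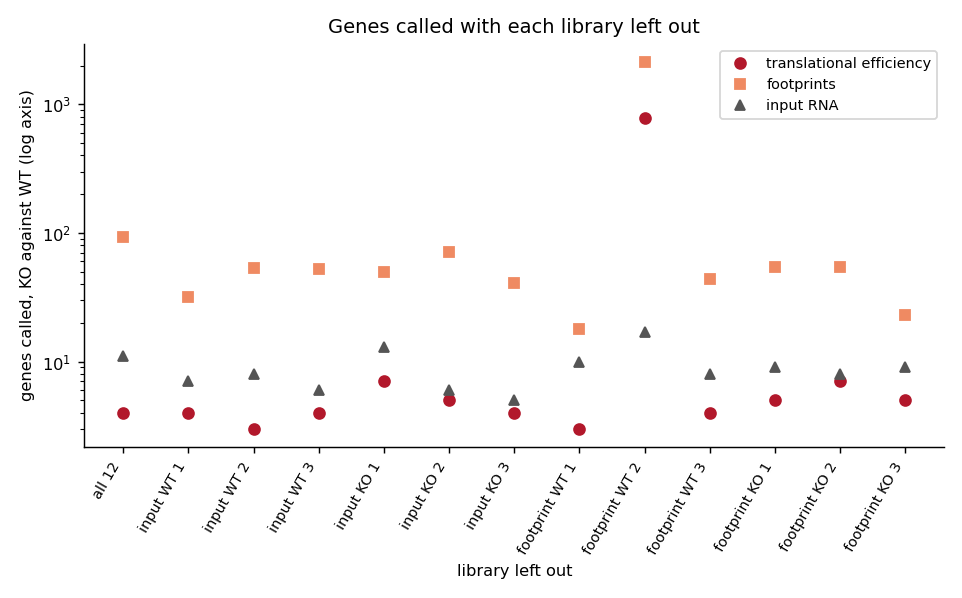
Number of genes called in KO against WT (log axis) with all 12 libraries and with each library left out in turn, for translational efficiency, footprints and input RNA. Leaving out WT footprint replicate 2 gave 781 efficiency calls and 2118 footprint calls, while every other library left out gave 3 to 7 efficiency calls.

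Genes were also described by the first transcribed base, the position that PCIF1 reads, and medians of the efficiency difference were near 0 for A, C, G and T. RefSeq starts (build GRCm38.p6) were matched by symbol for 10697 of the 13825 tested genes, and 9102 had the same first base at all their listed starts. Shown here are 30-base windows around the start of the 3 most expressed genes with an A and the 3 most expressed with another base, with the first transcribed base in capitals.
Lrp1: ccccccccccgcggcacttcAgtcagggga
Ttc3: cgcggcgactgcgcatgcgcAccctaagcc
Map1a: gcgcactctccccgcagcggAcgcagctag
Slc1a2: atggacagttgagctcattcCagaacttgg
Ckb: gccgccaatgggaggccggcGacgcgcccc
Lars2: tgtccgcggcctcccctttcGataaagttg
These windows lie at chr10:127621139-127621168 on the minus strand for Lrp1, chr16:94370719-94370748 on the plus strand for Ttc3 and chr2:121289582-121289611 on the plus strand for Map1a. The others lie at chr2:102706418-102706447 on the plus strand for Slc1a2, chr12:111672329-111672358 on the minus strand for Ckb and chr9:123366907-123366936 on the plus strand for Lars2.

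Lrp1, a lipoprotein receptor, had footprints of 6026, 10986 and 6172 in WT against 9175, 6865 and 5959 in KO and an efficiency interval of -1.12 to 0.63. Map1a, a microtubule-associated protein of dendrites, had an interval of -0.98 to 0.28, and Ttc3, a ubiquitin ligase, one of -0.55 to 0.25. Of the genes with another base, Slc1a2, the astrocyte glutamate transporter, had an interval of -0.49 to 0.08, Ckb, the brain creatine kinase, one of -0.11 to 0.50, and Lars2, the mitochondrial leucyl-tRNA synthetase, one of -0.45 to 1.96. All 6 intervals include 0. The median difference was -0.0086 over 2613 genes starting with A, -0.0086 over 1337 with C, -0.0017 over 4360 with G and 0.011 over 792 with T. Over the alternatives the median for A ran from -0.02 to 0.05 and that for G from -0.04 to 0.05. Among the A genes 0 were called, with 97 higher and 140 lower at an unadjusted p below 0.05, and without WT footprint replicate 2 5.77% were called against 5.18, 5.17 and 5.07% for C, G and T. For the 1690 genes with a C just before the A, the letters CA across the start on the transcribed strand, which 19.2% of all 32851 RefSeq starts hold, the median was 0.01. For the 213 genes that begin with a C and 4 further C or T, the median was -0.02. A RefSeq start need not be the start used in brain.

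**Figure D5:**
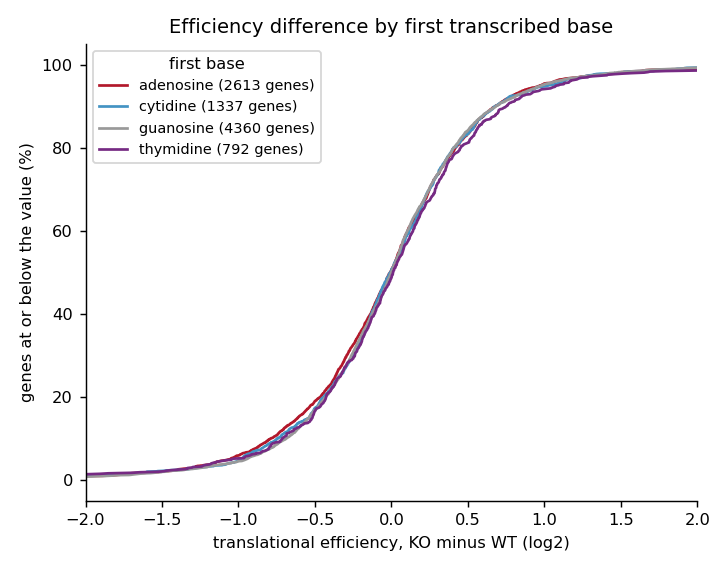
Cumulative share of genes (percent) at or below each difference in translational efficiency (log2, KO minus WT), by first transcribed base in RefSeq. The 4 curves lie almost on top of each other, with medians from -0.01 to 0.01.

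A list of likely PCIF1 targets came from testes of the same line. In the m6Am-Exo-Seq table, where capped RNA ends are precipitated with an anti-m6A antibody that recognises m6Am as well, 201 genes were enriched over input in heterozygotes and less so in KO (limma adjusted p below 0.05 for both). Of these, 92 were tested in brain. Their efficiency differences had a median of 0.18, 57 lay above 0, 0 were called by limma, and 3 higher and 3 lower were at an unadjusted p below 0.05. The other 8675 genes tested in both tissues had a median of -0.01, 4247 above 0, and 398 higher and 502 lower at an unadjusted p below 0.05. Over the alternatives the median of the 92 genes ran from 0.07 to 0.24. Their median input difference was -0.07 and their median footprint difference 0.13. Without WT footprint replicate 2, 1 higher and 1 lower of 91 were called, or 2.2%, against 6.38% of 8654 other genes. The list was formed from libraries of another tissue, and its length depended on single testes libraries, from 94 to 287 genes.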

How the data were processed

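Ribosome footprints and input RNA of adult mouse brain were analysed in 12 libraries, 3 per group. Per the deposited table, values are signal: reads of a gene scaled by the authors for each library, of which 7.72 to 15.5% are whole multiples of 1 read, so no count test was run on them. DESeq2 1.25.10, DESeq, Salmon 0.12.0, R 3.6.2 and STAR are listed, with no roles, in the submitters' processing notes. Not given in the sources used here are the genome build, annotation, strand use and filters. The authors' deposited fold changes and adjusted p-values were not used.

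Limma 3.58.1 (R 4.3.3, empirical Bayes with trend) was fitted to log2(signal + 1) with a mean per group, for protein-coding rows with at least 10 in at least 3 libraries. Input, footprint and efficiency differences came from this 1 model, with two-sided tests and Benjamini-Hochberg adjustment over 13825 genes at 0.05. Depth was estimated from the value of 1 read, and the precision is given as intervals. For the testes list, whole reads were recovered in 100% of the deposited signal values (tolerance 0.01), and edgeR 4.0.16 on those reads was an alternative. Scripts were tested on simulated data.

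Named genes were the called ones, the 10 with the smallest p in each direction (predicted genes named only if called, apart from those of the input and footprint comparisons), the 2 most expressed and the 2 of smallest p in each list, called input and footprint genes, and the 3 most expressed genes with and without a first A, of which the text gives a part, chosen after their values were seen. Genes on chromosome 18 were left out when the most expressed genes by first base were picked. The members and the lists were chosen with earlier results of these data known. Alternatives were other pseudocounts, filters, scalings, array weights, leaving out each library and, chosen after seeing the data, leaving out both libraries that stand apart, WT footprints from replicate 2 alone, leaving out genes listed at 0, summing near copies and edgeR for the testes list.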

Additional observations from a re-analysis of the deposited data

Results flagged for a closer look

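Footprint against input differed between KO and WT, by the test of the difference itself, in 4 genes. The fitted log2 values were 3.96 for Abcb1a, 4.12 for Gm10260, 6.01 for Gm21985 and -5.19 for Gm4737. Gm10260, Gm21985 and Gm4737 each have a group listed at 0, so their sizes depend on the pseudocount. Their calls were lost in 1 of 25, 1 of 26 and 1 of 26 alternatives, each time at a pseudocount of 10, and that of Abcb1a in 9 of 27. Alternatives in which a gene was not tested are missing from its total, so these shares are not alike. Gm10260, Gm21985 and Gm4737 were not tested when genes listed at 0 were left out. With near copies summed, Gm10260 was tested only as part of Rps18, where the difference was 0.32 (limma adjusted p = 0.598).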

How the results depend on the processing

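Efficiency calls numbered 4 with 12 libraries and also with a pseudocount of 0.5, a filter at 50, equal protein-coding totals, median-of-ratios or quantile scaling, and a robust fit. They numbered 0 at a pseudocount of 10, 16 without a filter, 31 over all biotypes, 17 without the trend, 298 with array weights, 663 without both libraries that stand apart (WT footprint replicate 2 and KO input replicate 2), 7 with WT footprints from replicate 2 alone, 0 without genes listed at 0 and 2 with near copies summed. Leaving out 1 library gave 3 to 781 efficiency, 5 to 17 input, 18 to 2118 footprint and 94 to 287 testes list genes. The highest counts of the first 3 were without WT footprint replicate 2. Input calls moved from 11 to 17 without a filter, 42 over all biotypes, 85 with array weights and 4 without genes listed at 0. Footprint calls moved from 93 to 162 over all biotypes, 49 without the trend, 1447 with array weights, 10 with the spread taken from footprint libraries alone and 2432 without both libraries. Some alternatives test other genes or libraries by construction, and the cause of the remaining shifts was not tested. No paired analysis was run, because the labels carry no replicate numbers that tie a footprint library to its input. A fit paired by accession order was not tried.

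The sign changed with WT footprints from replicate 2 alone for Arc (0.27), Eef2 (0.0160), Eif4g1 (-0.0227), Hsp90ab1 (-0.23), Lars2 (-0.41), Map1a (0.0425), Mbp (0.16), Rpl7a (-0.24), Selenop (-0.14), Snap25 (-0.00600), Tubb3 (0.0719) and mt-Co1 (0.0401). The sign changed with array weights for Eif4a2 (-0.0357), Gpx4 (-0.0484), Lrp1 (0.0773), Ttc3 (0.0118) and mt-Co3 (-0.42). The sign changed without both libraries that stand apart for Gpx4 (-0.12), Lrp1 (0.21) and mt-Co3 (-0.38). The sign changed with quantile scaling for mt-Co1 (0.0524). Leaving out single libraries changed the sign of efficiency differences near 0, with ranges of Eif4a2 (-0.0735 to 0.13), Eif4g1 (-0.0145 to 0.15), Gpx4 (-0.0894 to 0.25), Lrp1 (-0.48 to 0.0352), Rpl7a (-0.23 to 0.48), Selenop (-0.0482 to 0.24) and mt-Co3 (-0.56 to 0.79). Intervals were widest among the least expressed genes, where the median distance from an estimate to its end was 1.62, and the part of depth in this was not tested.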
